A study of Mus musculus with 8 samples.

Results

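The genes described here are 10 genes of the LIN28 and fetal growth timing programme: Lin28a, Lin28b, Trim71, Igf2bp1, Igf2bp2, Igf2bp3, Hmga1, Hmga2, Mycn and Arid3a. They were chosen by symbol, each symbol had a single record in the deposited tables, and they are 10 of 23997 gene symbols. The series holds 8 RNA-seq libraries of mouse embryonic lung, strain C57BL/6, from lungs in which a ribosomal tag had been induced with tamoxifen. TRAP (translating ribosome affinity purification) pulls down ribosomes of the labelled cells, here through the ribosomal protein L10, and sequences the mRNA they carry. The wild-type groups were 1 TRAP and 1 whole lung homogenate library at embryonic day 14 (E14), 1 of each at E17, and 2 TRAP libraries at E16. The last group held 2 TRAP libraries of Sox9-mutant lungs, also at E16. The design text calls the E14 reference a supernatant, where its label says homogenate. The titles of all libraries name Sox9, which marks the distal progenitor tips of the lung epithelium. The labels leave out the mutant allele, the driver of the tag and the time of labelling, and the E16 titles also carry E13 without explanation.

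LIN28A and LIN28B are RNA-binding proteins that block the maturation of let-7 microRNAs, which rise as embryonic tissues mature. Trim71 (the mouse lin-41 gene), Hmga2, the Igf2bp genes, Mycn and Arid3a are known let-7 targets or partners of LIN28, and several of these genes are high in the early embryo and low in adult tissue. IGF2BP proteins bind Igf2 mRNA, HMGA proteins bind AT-rich DNA in chromatin, and Mycn is known for its part in the growth of the lung tips.

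The let-7 sequences are shown because they tie these genes together. All 9 mature let-7 and miR-98 sequences of the 5′ arm in the RefSeq table (GRCm38.p6) share 1 seed, and 11 of 1679 mature sequences in that table carry it. The capitals mark the seed, bases 2 to 8.
mmu-let-7a-5p: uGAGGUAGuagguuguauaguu
mmu-let-7b-5p: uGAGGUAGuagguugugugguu
mmu-let-7d-5p: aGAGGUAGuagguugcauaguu
mmu-let-7g-5p: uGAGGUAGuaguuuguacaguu
mmu-miR-98-5p: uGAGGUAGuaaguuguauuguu
LIN28 proteins are known to bind GGAG in the loop of let-7 precursors. The letters GGAG lay between the arms in 9 of 12 let-7 and miR-98 hairpins, against 8.07% of the 644 hairpins with both arms in the table. Mirlet7g (chromosome 9, 106178840 to 106178927, plus strand) holds it and Mirlet7b (chromosome 15, 85707319 to 85707403, plus strand) does not, and the capitals mark it.
Mirlet7g: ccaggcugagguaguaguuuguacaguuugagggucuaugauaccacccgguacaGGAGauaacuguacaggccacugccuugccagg
Mirlet7b: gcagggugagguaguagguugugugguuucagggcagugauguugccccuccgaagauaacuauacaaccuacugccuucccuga
These libraries do not measure mature microRNAs. The 13 let-7 precursor records, each spanning 83 to 122 bases, were listed at 0 in all 8 libraries.

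Levels are FPKM, fragments scaled to transcript length and to library size, as deposited. Between 9783768 and 21500523 fragments lay behind a library, as inferred from the deposited confidence bounds. The FPKM totals ran from 659798 to 1631259, the highest being wild-type replicate 1 at E16. At E16, Sox9 had 35.9 and 36.4 FPKM in wild-type libraries against 12.8 and 11.03 in mutant ones, in the direction of the labels. Summed FPKM of 12 pan-epithelial markers was 2752 in E14 TRAP against 588 in E14 whole lung, and 3002 against 1052 at E17. The 12 mesenchyme markers summed to 316 against 1443 and to 323 against 1927. TRAP libraries thus held more of the epithelial and less of the mesenchymal markers, without lacking the latter. In whole lung, fewer cells of a type and less RNA per cell cannot be told apart. Nothing in the labels says that replicates came from separate animals, so a p-value here reflects the spread among these libraries alone, which may be technical.

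**Figure D1:**
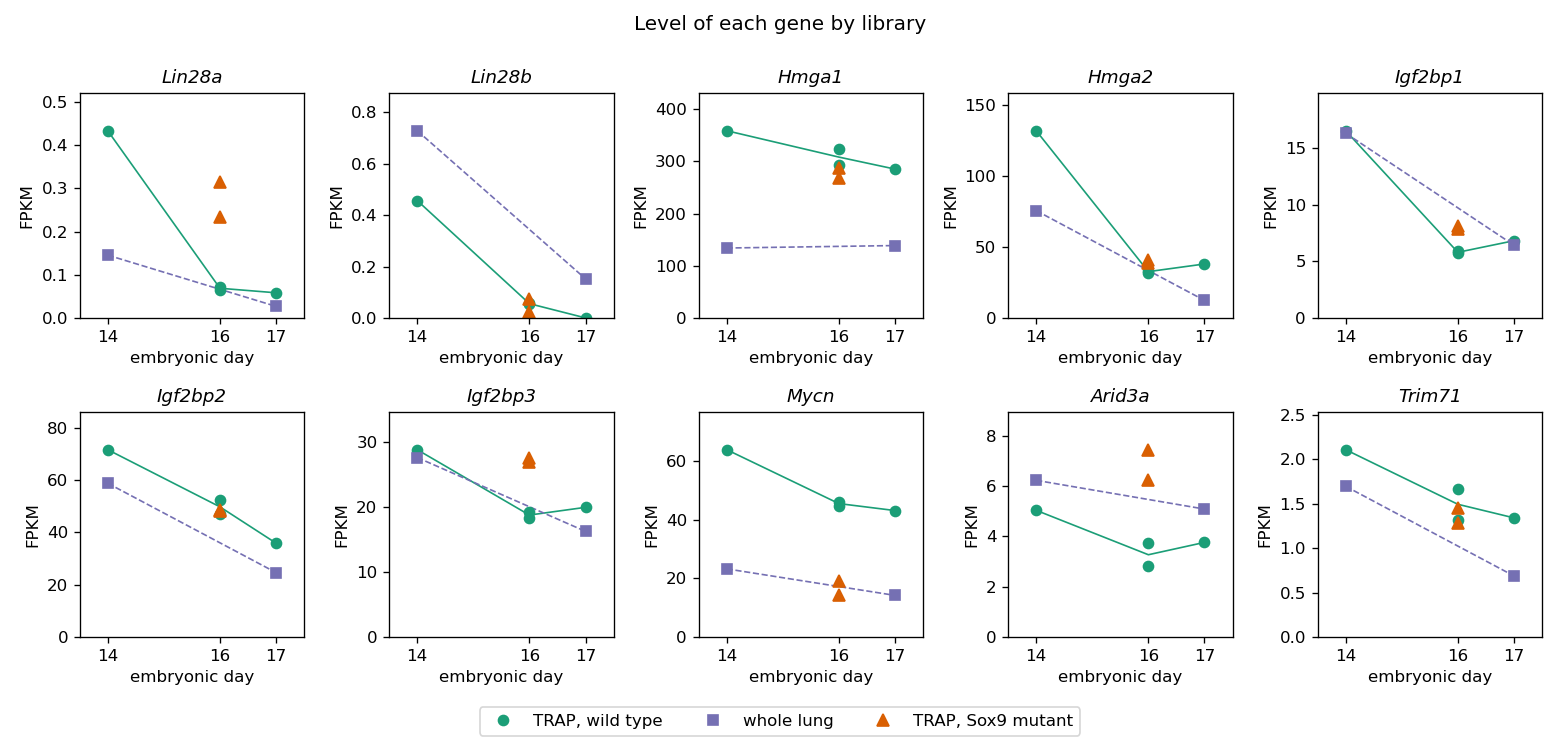
FPKM (vertical axes, each starting at 0) of each of the 10 genes against embryonic day; circles are wild-type TRAP libraries, squares whole lung and triangles Sox9 mutant TRAP, and lines join the mean of each day. E14 TRAP is the highest wild-type TRAP library for all 10 genes, and Mycn is the gene whose mutant values lie far below the wild type.

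All 10 genes were lower at E17 than at E14 in TRAP, and 9 of 10 in whole lung, the exception being Hmga1. Both pairs were lower for 7 of the 8 genes whose mean reached 1 FPKM, where 37.8% of all such records were. Lin28a and Lin28b stayed under that mean and were not tested. In a fit of both fractions together, 5 of the 8 fell (Hmga2, Igf2bp1, Igf2bp2, Mycn and Igf2bp3), 0 rose and 3 did not pass (limma, Benjamini-Hochberg adjusted p under 0.05), where 6.36% of 12320 records fell and 9.51% rose. The median log2 difference of the 8 was -0.62, against 0.01 for all records. With 1 library per stage and fraction, this fit measures the stage difference against the disagreement of TRAP and whole lung. Without the filter on low values the 5 adjusted p values lay between 0.0654 and 0.0887 and none passed, in a fit that called 49 records higher and 3 lower. With FPKM totals made equal, the median over all records shifted to -0.23 and 4 genes were called, Igf2bp3 and Mycn being lost and Trim71 gained. Stage and library preparation cannot be told apart here.

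As single libraries, 2 of the 10 genes were at least 2-fold lower at E17 in TRAP on the FPKM + 1 scale (Hmga2 and Igf2bp1), where 1.91% of 11810 records were. In whole lung 3 were (Hmga2, Igf2bp1 and Igf2bp2), where 1.3% of 12493 records were. Lin28a and Lin28b, under 1 FPKM in every library, could not reach 2-fold on this scale. The counts were also 2 and 3 among the 8 genes tested. With a pseudocount of 0.1 the counts over all 10 genes were 4 and 5, Lin28a and Lin28b being those added in TRAP.

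The LIN28 genes were the lowest of the set. Lin28a (chromosome 4, 134003330 to 134018816, mm10) was at 0.434 FPKM in E14 TRAP, 0.0656 and 0.0717 in the E16 wild type and 0.0582 in E17 TRAP. In whole lung it was at 0.145 FPKM at E14 and 0.0268 at E17. These values rest on 18, 5, 6, 4, 15 and 2 inferred fragments in that order. The E14 TRAP level was 7.45 times that of E17 TRAP (95% interval 2.52 to 22.04), and the whole lung ratio was 5.43 (1.24 to 23.9). These intervals cover counting error only. Both pairs were thus lower at E17 beyond counting error, with no replicate to show the spread between lungs.

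Lin28b (chromosome 10, 45376619 to 45470201) was at 0.457 FPKM in E14 TRAP (30 fragments), 0.0580 and 0.0528 in the E16 wild type (7 each), and it was listed at 0 in E17 TRAP. Whole lung held 0.729 FPKM at E14 (119 fragments) and 0.152 at E17 (18 fragments), a ratio of 4.79 (95% counting interval 2.92 to 7.87). Lin28b was thus higher in whole lung than in TRAP at both stages. At E14 the TRAP level was 0.627 of that in whole lung (0.420 to 0.936) for Lin28b and 2.98 times that in whole lung (1.497 to 5.94) for Lin28a. At E17 the Lin28a ratio was 2.17 on 4 against 2 fragments (0.398 to 11.9), so no difference was detectable at that depth. Summed erythroid markers were also highest in E14 whole lung, but their order over the libraries was not that of Lin28b. The 8 found of 10 listed summed to 16484 FPKM in E14 whole lung, 10509 in E17 whole lung, 3685 in E14 TRAP and 3325 in E17 TRAP. In the E16 libraries the sum was between 272 and 321 FPKM. Their part in the Lin28b values was not tested.

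Trim71 (chromosome 9, 114511273 to 114564369), an RNA-binding ubiquitin ligase of early development, was at 2.11 FPKM in E14 TRAP, 1.67 and 1.32 in the E16 wild type and 1.34 in E17 TRAP. Whole lung held 1.70 FPKM at E14 and 0.687 at E17. E14 was the highest in each fraction, and the log2 difference over both was -0.54 (SE 0.21, limma adjusted p = 0.130). It passed, at the same log2 difference, when all 6 wild-type libraries were fitted together (adjusted p = 0.0455).

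The IGF2BP genes encode RNA-binding proteins that stabilise and localise growth-related mRNAs. Igf2bp1 (chromosome 11, 95957164 to 96005944) was at 16.6 FPKM in E14 TRAP, 5.90 and 5.71 in the E16 wild type and 6.83 in E17 TRAP. In whole lung it was at 16.4 FPKM at E14 and 6.44 at E17. The wild-type values of E16 and E17 did not reach 7 FPKM, and neither E14 value was below 16. The joint log2 difference was -1.19 (SE 0.12, limma adjusted p = 0.00807), lower in 2 of 2 fractions. With limma-voom on the inferred fragments it was -0.78 (adjusted p = 0.024). The direction held, and the size of the Igf2bp1 difference depended on the measure.

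Igf2bp2 (chromosome 16, 22059009 to 22163299) had the highest FPKM of the 3 throughout. It stood at 71.5 FPKM in E14 TRAP, 52.4 and 47.0 in the E16 wild type and 35.8 in E17 TRAP. In whole lung it was at 58.7 FPKM at E14 and 24.6 at E17. Igf2bp2 was the gene of the 3 that stood between E14 and E17 at E16. The log2 difference was -1.10 (SE 0.11, limma adjusted p = 0.00727), lower in 2 of 2 fractions. Igf2bp3 (chromosome 6, 49085218 to 49214954) was at 28.9 FPKM in E14 TRAP, 19.3 and 18.3 in the E16 wild type and 19.99 in E17 TRAP, and at 27.7 and 16.3 in whole lung at E14 and E17. Its log2 difference of -0.62 (SE 0.11, limma adjusted p = 0.0284) was smaller than that of the other IGF2BP genes, a contrast that was not tested.

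Hmga2 (chromosome 10, 120361275 to 120476935), an AT-hook chromatin protein of fetal and stem cells, had the largest stage difference of the 8 genes tested. It was at 132 FPKM in E14 TRAP, 33.2 and 31.8 in the E16 wild type and 37.9 in E17 TRAP, and at 75.4 FPKM in E14 whole lung against 12.3 in E17 whole lung. The TRAP ratio of E14 to E17 was 3.47 (95% counting interval 3.33 to 3.62) and the whole lung ratio was 6.13 (5.76 to 6.52). The joint log2 difference was -2.15 (SE 0.19, limma adjusted p = 0.00588), lower in 2 of 2 fractions. The 2 counting intervals did not overlap, so the ratio was smaller in TRAP than in whole lung in these libraries, with no replicate check. Hmga2 was at least 2-fold lower as FPKM + 1 at E17 in both pairs, together with Igf2bp1, where 0.416% of records with a mean of 1 FPKM in both pairs were.

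Hmga1 (chromosome 17, 27556574 to 27563672) was the most abundant of the 10 genes. It was listed at 359 FPKM in E14 TRAP, 323 and 293 in the E16 wild type and 285 in E17 TRAP, and at 134 and 139 in whole lung at E14 and E17. The record carried a failed status in the deposited values of E17 TRAP, wild-type replicate 2 and mutant replicate 2, so its values are uncertain there. The stage difference of -0.14 (SE 0.12, limma adjusted p = 0.464) did not pass.

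Mycn (chromosome 12, 12936093 to 12941836), a MYC-family transcription factor of the lung tips, was at 64.0 FPKM in E14 TRAP, 44.9 and 46.3 in the E16 wild type and 43.2 in E17 TRAP. In whole lung it was at 23.3 FPKM at E14 and 14.2 at E17. The joint log2 difference was -0.62 (SE 0.10, limma adjusted p = 0.0235), lower in 2 of 2 fractions. Arid3a (chromosome 10, 79927043 to 79955018), a DNA-binding protein first known from B cells, was at 5.04 FPKM in E14 TRAP, 3.74 and 2.80 in the E16 wild type, 3.76 in E17 TRAP, and 6.24 and 5.09 in whole lung. Its difference of -0.30 (SE 0.15, limma adjusted p = 0.222) did not pass.

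**Figure D2:**
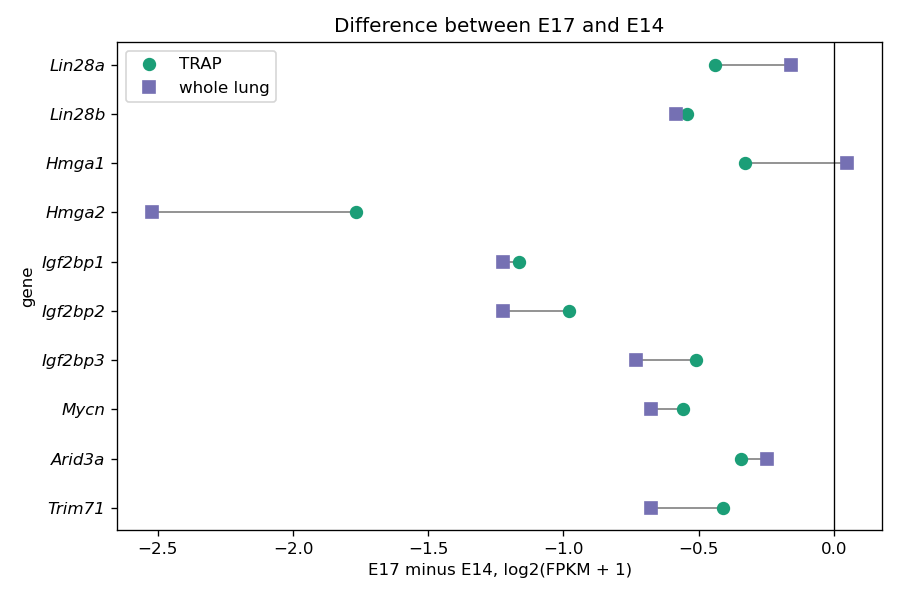
Difference of log2(FPKM + 1) between E17 and E14 (horizontal axis) for each gene, with 1 library per point; circles are TRAP and squares whole lung. Hmga2 lies farthest to the left in both, and Hmga1 in whole lung is the only point to the right of 0.

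Within TRAP, most of the difference lay between E14 TRAP and the E16 libraries, whose titles also carry E13. Both E16 wild-type libraries and E17 TRAP were below E14 TRAP for all 10 genes, where 35.2% of 11844 records with a mean of 1 FPKM were. From E14 to the E16 mean, Hmga2 had a ratio of 4.05 (95% counting interval 3.91 to 4.19), Igf2bp1 of 2.85 (2.63 to 3.09) and Igf2bp2 of 1.44 (1.38 to 1.498). From the E16 mean to E17, Hmga2 was 1.17 times higher (1.12 to 1.22) and Igf2bp1 1.18 times higher (1.08 to 1.28), while Igf2bp2 was lower, at 0.721 (0.691 to 0.752). A straight line over the days was fitted to the 4 wild-type TRAP libraries. Its slope passed for 0 of 8 genes and 0.0% of 11844 records (limma), although the unadjusted p was under 0.05 for 5 of 8 genes and for 16.3% of records. By limma-voom the count was 0 as well. Without E17 TRAP the slope was called downward for 7 of 8 genes, Trim71 being the other. Without E14 TRAP it was called downward for Igf2bp2 (-0.46 log2 per day) and upward for Hmga2 (0.22), and those of Igf2bp1 (0.20), Igf2bp3 (0.08) and Arid3a (0.17) were above 0 without passing. Sox9 was lower in these E16 libraries (35.9 and 36.4 FPKM) than in E14 TRAP (63.9) and E17 TRAP (68.5). The summed erythroid markers were also lower in them (321 and 320 FPKM) than in E14 TRAP (3685) and E17 TRAP (3325). The part of these differences in the result was not tested. Stage cannot be told apart here from the separately titled set of E16 libraries.

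Most of the set was higher in TRAP. Of the 10 genes 8 were higher in TRAP than in whole lung at both stages, as were 7 of the 8 tested, where 45.8% of 12320 records were. Of the 8 tested genes, 4 passed as higher in TRAP over both stages (Mycn, Hmga1, Hmga2 and Igf2bp2), 0 were lower and 4 did not pass, where 23.6% of 12320 records were higher and 17.1% lower. Mycn was 2.75 times higher in TRAP at E14 (95% counting interval 2.58 to 2.94) and 3.05 times at E17 (2.81 to 3.31), with a joint log2 difference of 1.48 (SE 0.10, limma adjusted p = 0.000864). Hmga1 had a log2 difference of 1.22 (SE 0.12, limma adjusted p = 0.00189). Hmga2 had one of 1.17 (SE 0.19, limma adjusted p = 0.00698), and its ratio was 1.75 at E14 (1.69 to 1.80) and 3.08 at E17 (2.88 to 3.30).

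Igf2bp2 was higher in TRAP by a smaller step (log2 0.40, SE 0.11, limma adjusted p = 0.0327). That call was lost without the filter (adjusted p = 0.0597), with limma-voom (0.180) and after rescaling without records under 200 bases (0.0741). Equal FPKM totals shifted the median over all records to -0.31, ended this call (log2 0.02) and those of Hmga1 (0.84) and Hmga2 (0.80), and left that of Mycn (1.11). Igf2bp1 had 1.01 times the whole lung level at E14 (95% counting interval 0.935 to 1.10) and 1.06 times at E17 (0.960 to 1.17). Igf2bp3 (log2 0.17), Trim71 (0.34) and Arid3a (-0.31) did not pass either. Igf2bp1 (-0.30) and Igf2bp3 (-0.20) were below 0 with equal totals. Epithelial markers moved with the fraction, with all 12 pan-epithelial genes higher in TRAP (median log2 1.79) and all 11 tested mesenchyme genes lower (median -2.99). Over all records 23.6% were higher and 17.1% lower.

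**Figure D3:**
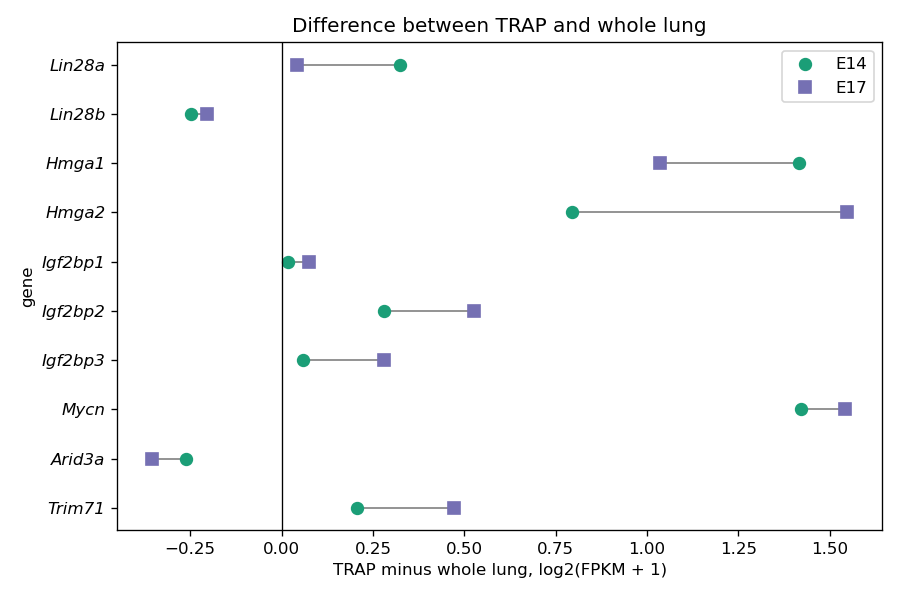
Difference of log2(FPKM + 1) between TRAP and whole lung (horizontal axis) for each gene, with 1 library pair per point; circles are E14 and squares E17. Mycn, Hmga1 and Hmga2 lie farthest to the right, Igf2bp1 lies at 0, and Lin28b and Arid3a lie to the left at both stages.

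In the Sox9 mutant at E16 the genes did not move together. Both mutant values lay above both wild-type values for 5 of the 10 genes and below them for 2, where 36.8% and 33.3% of 11872 records did so. Of 8 tested, 1 fell (Mycn), 4 rose (Arid3a, Igf2bp3, Igf2bp1 and Hmga2) and 3 did not pass, where 14.3% of 11872 records fell and 17.4% rose. Mycn was at 44.9 and 46.3 FPKM in wild-type libraries against 19.2 and 14.4 in mutant libraries. Both mutant values were below both wild-type values, at means of 45.6 ± 0.963 and 16.8 ± 3.43 FPKM (SD, n = 2 each). The log2 difference was -1.40 (SE 0.13, limma adjusted p = 0.000951), lower in 2 of 2 mutant libraries.

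Arid3a was at 3.74 and 2.80 FPKM in wild-type libraries against 7.46 and 6.26 in mutant libraries. The groups did not overlap, and the log2 difference was 0.88 (SE 0.14, limma adjusted p = 0.00594). Igf2bp3 was at 19.3 and 18.3 FPKM in wild-type libraries against 27.0 and 27.5 in mutant libraries. The log2 difference was 0.52 (SE 0.06, limma adjusted p = 0.00168), and the mutant mean of 27.3 ± 0.366 FPKM (SD, n = 2) was close to the 28.9 FPKM of E14 TRAP. Igf2bp1 was at 5.90 and 5.71 FPKM against 7.86 and 8.17 in mutant libraries (log2 0.41, SE 0.07, limma adjusted p = 0.00874), and here the E14 TRAP value of 16.6 FPKM was far higher.

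Hmga2 was at 33.2 and 31.8 FPKM in wild-type libraries against 38.4 and 40.7 in mutant libraries. The groups did not overlap, and the difference was small (log2 0.27, SE 0.06, limma adjusted p = 0.0159). Without wild-type replicate 1 or 2 it no longer passed (adjusted p = 0.0586 and 0.108), and without wild-type replicate 2 neither did Igf2bp1 (0.0591). Igf2bp2 was at 52.4 and 47.0 FPKM against 48.5 and 48.0 (log2 -0.04, limma adjusted p = 0.680), with the mutant values inside the wild-type range. Trim71 was at 1.67 and 1.32 FPKM against 1.29 and 1.45 (log2 -0.07, adjusted p = 0.681), and the groups overlapped.

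Hmga1 was listed at 323 and 293 FPKM in wild-type libraries against 268 and 287 in mutant libraries, with the second library of each group marked as failed (log2 -0.15, limma adjusted p = 0.144). Lin28a, below the filter, was at 0.0656 and 0.0717 FPKM in the wild type (5 and 6 fragments) against 0.233 and 0.315 in mutant libraries (21 and 24 fragments). The groups did not overlap, and the ratio of the means was 3.99 (95% counting interval 2.06 to 7.71). Lin28b was at 0.0580 and 0.0528 FPKM against 0.0210 and 0.0746, so its groups overlapped at 3 to 9 fragments a library. The ratio of the means was 0.862 (95% counting interval 0.399 to 1.86), so a difference was not detectable within those bounds.

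**Figure D4:**
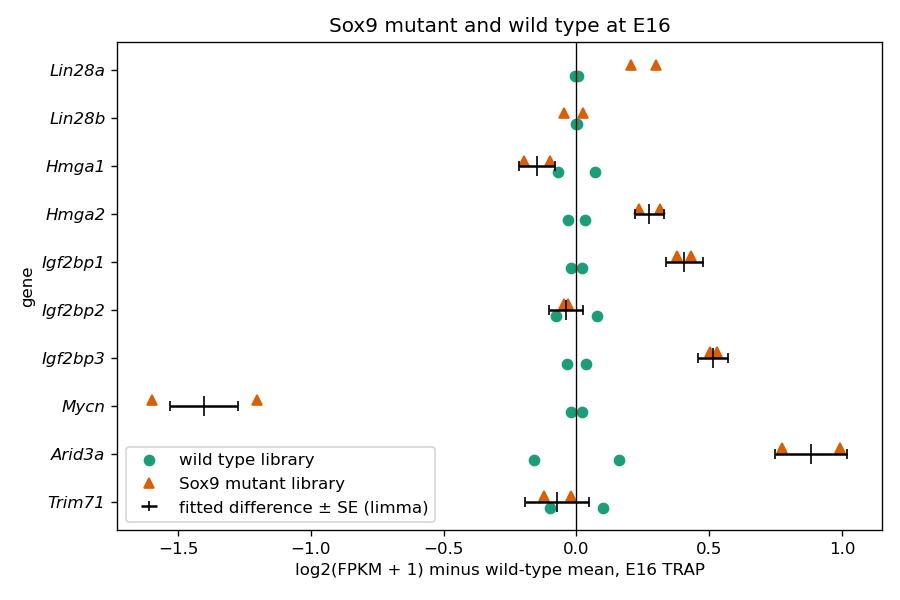
log2(FPKM + 1) of each E16 TRAP library minus the wild-type mean (horizontal axis) for each gene; circles are wild-type and triangles mutant libraries, and black bars give limma's difference with its SE for the 8 genes tested. Mycn lies to the left at -1.40 and Arid3a to the right at 0.88.

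With FPKM totals made equal, the median over all records in this comparison shifted to 0.41 and 0 of the 8 genes passed. Mycn was then at -0.96 and Arid3a at 1.24, both in the same direction. The differences of Hmga1 (0.31), Igf2bp2 (0.41) and Trim71 (0.18) were then above 0, where they had been below it. Rescaling after leaving out records under 200 bases kept the 5 calls. Summed markers moved between the genotypes: pan-epithelial genes came to 2511 and 2484 FPKM in wild-type libraries against 3398 and 3286 in mutant ones, and 12 mesenchyme genes to 277 and 348 against 178 and 238. Distal tip markers, Sox9 among them, summed to 1359 and 1323 FPKM against 504 and 498, with 6 of 10 lower and 2 higher (median log2 -1.37, beside -1.40 for Mycn). Alveolar differentiation genes summed to 4243 and 4913 FPKM against 1843 and 1503, although 4 of 11 tested were higher and 2 lower. Over all records 17.4% were higher and 14.3% lower. Cell cycle genes summed to 1094 and 1099 FPKM against 955 and 978. The 8 leukocyte markers were under 1 FPKM each in these 4 libraries. The part of these shifts in the results was not tested.

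Promoter windows of 300 bases around a RefSeq start, most of them upstream, are shown for the gene that fell and for one that rose in the mutant. Windows were found for 8 of the 10 genes. None was found for Arid3a and Igf2bp1, which also rose in the mutant. Capitals mark CACGTG, the E-box that MYC proteins can bind, and TTTGGCGC, an E2F-type motif, searched on both strands. The second motif was added after the Mycn window had been read.
Mycn, chr12:12941787-12942086 (GRCm38.p6, minus strand): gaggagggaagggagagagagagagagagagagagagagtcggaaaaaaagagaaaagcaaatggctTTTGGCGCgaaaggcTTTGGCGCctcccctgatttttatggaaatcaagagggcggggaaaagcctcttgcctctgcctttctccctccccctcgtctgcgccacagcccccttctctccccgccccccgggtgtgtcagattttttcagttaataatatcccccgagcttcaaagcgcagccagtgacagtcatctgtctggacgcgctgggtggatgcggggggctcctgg
Igf2bp3, chr6:49214905-49215204 (GRCm38.p6, minus strand): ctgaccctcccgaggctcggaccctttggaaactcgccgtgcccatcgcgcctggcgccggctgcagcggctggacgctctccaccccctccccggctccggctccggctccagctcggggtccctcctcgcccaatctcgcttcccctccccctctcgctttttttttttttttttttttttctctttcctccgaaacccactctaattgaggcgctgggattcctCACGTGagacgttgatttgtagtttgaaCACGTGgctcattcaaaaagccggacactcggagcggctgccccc
The Mycn window holds TTTGGCGC 2 times and the Igf2bp3 window holds CACGTG 2 times. Of 32851 windows of 300 bases, 0.514% hold TTTGGCGC and 7.15% hold CACGTG. Because TTTGGCGC was picked after reading the Mycn window, its share cannot show whether that window is unusual. The Lin28b window also holds CACGTG, 1 time, and that of Hmga2, which rose in the mutant, does not hold it. A link between these letters and the mutant differences was not tested. The letters ACAAT, a core that SOX proteins can bind, were found in 31.0% of windows and in those of Lin28a, Lin28b and Hmga2, and they were not in the Mycn window.

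Genes of the let-7 pathway were read from a list of processing factors. At E17 against E14, 5 of 11 fell, 0 rose and 6 did not pass (limma; median log2 -0.40, against 0.01 for all records), where 6.36% of all records fell and 9.51% rose. Xpo5, which exports precursors from the nucleus, had a log2 difference of -0.81 (adjusted p = 0.0185) and Drosha, which cuts the primary transcript, one of -0.64 (adjusted p = 0.0223). Ago2 (-0.74), the effector of microRNA silencing, and Tarbp2 (-0.52), a partner of Dicer, fell too. In the mutant 4 of 11 rose and 1 fell (median 0.12), where 17.4% of all records rose and 14.3% fell. Tarbp2 (0.44), Dicer1 (0.45), Zcchc11 (0.34), the uridylyltransferase recruited by LIN28A, and Ago2 (0.37) were the 4 that rose, and Hnrnpa1 fell (-0.23).

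Other let-7 targets moved in part. Of 19 tested, 4 fell and 1 rose with stage (median log2 -0.29), and in the mutant 9 rose and 1 fell (median 0.21). Over all records 6.36% fell and 9.51% rose with stage, and 17.4% rose and 14.3% fell in the mutant. With stage, Cdc34 (-0.68), E2f6 (-0.57), the cyclin gene Ccnd2 (-0.66) and the receptor gene Tgfbr1 (-0.63) fell. In the mutant, Ccnd2 was at 57.8 and 51.1 FPKM in wild-type libraries against 152 and 146 (log2 1.44, limma adjusted p = 0.000129). Hras (0.47) and Ccnd1 (0.46) rose too.

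Growth genes tied to fetal size moved in both directions, beside those same shares of all records (6.36% lower and 9.51% higher by stage, 17.4% higher and 14.3% lower in the mutant). Of 13 tested, 4 fell and 2 rose with stage (median log2 -0.26), among them Peg3 (-0.95), Slc38a4 (-0.84) and the Polycomb gene Ezh2 (-0.45) down and Dlk1 up (1.09). In the mutant 4 rose and 4 fell (median 0.03). Igf2, the growth factor whose mRNA IGF2BP proteins bind, had a log2 difference of 1.77 (limma adjusted p = 7.055e-05), and H19 (1.73) and Cdkn1c (1.66), also imprinted, rose with it, while Grb10 fell (-0.81).

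In the MYC network, 1 of 9 rose and 0 fell with stage, where 9.51% of all records rose and 6.36% fell. The gene that rose was Mxd4, a MYC antagonist (log2 0.68). In the mutant 4 of 9 rose and 1 fell, against 17.4% and 14.3% of all records. While Mycn fell, its relatives Mycl (1.66) and Myc (0.67) rose. Mycl was at 25.3 and 17.8 FPKM in wild-type libraries against 64.7 and 74.3 in mutant libraries, and Myc at 3.01 and 3.63 against 6.23 and 5.51. Mxd4 rose (0.81) and Max, the shared partner, fell (-0.24). Among paralogs of the 10 genes, Trim2 fell (-1.37) and Trim3 rose (0.82) in the mutant.

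Marker genes of proliferation and maturation gave the setting of the stage difference. Of 15 cell cycle genes, 4 fell, 0 rose and 11 did not pass at E17 against E14 (limma; median log2 -0.27). Their sum was 1490 and 1242 FPKM in TRAP and 1171 and 979 in whole lung. Of 11 tested alveolar differentiation genes, 10 rose and 0 fell (median 2.96). Over all records 6.36% fell and 9.51% rose with stage. Hmga2, at -2.15, and the 2 IGF2BP genes at -1.19 and -1.10 thus lay below the cell cycle median, a difference that was not tested.

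The records whose profile over the 8 libraries was most like that of Hmga2, of 4515 with a range of at least 1 log2 unit, were Eif4g1 (Pearson r 0.99), Fads2 (0.97), Pycrl (0.95), Nip7 (0.94) and C1qbp (0.94). For Lin28b they were Flnc, Xpo4, Stra6, Ddx21 and the embryonic globin gene Hbb-bh1 (r 0.98 for each). Hbb-bh1 was at 26.9 and 1.11 FPKM in TRAP and at 169 and 2.68 in whole lung at E14 and E17. Among the members, Trim71 and Igf2bp2 were most alike (r 0.95), followed by Trim71 and Hmga2 (0.92), and Mycn and Arid3a were least alike (-0.66). These coefficients describe 8 points that share stages, depths and libraries.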

How the data were processed

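The authors deposited 1 table per library with FPKM values, confidence bounds and a status for 24487 records, per the file headers. TopHat2 2.0.14, Bowtie2 2.2.3, Cufflinks 2.2.1, Cuffnorm and mm10 are named in the submitters' processing notes. How library totals were set is not stated in the labels. Tables were joined on name and position, and 1 was added to each start. Fragments were inferred as the square of value over standard error, reading value to upper bound as 2 standard errors.

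Values were tested as log2(FPKM + 1) with limma 3.58.1 (R 4.3.3; eBayes with trend). Tests were two-sided, and p-values were adjusted by Benjamini-Hochberg over every record whose mean in the fit reached 1 FPKM. Log2 differences thus understate changes of low genes. Stage and fraction shared 1 additive fit of 4 libraries (1 residual degree of freedom); the mutant and slope fits had 2. Replicate numbers were not used to pair the E16 libraries in the reported fits. The mutant and stage fits were also run on simulated data. Those data held no disagreement of TRAP and whole lung beyond random noise, so they cannot show how the stage fit errs on real libraries.

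The genes, lists and tests were chosen with earlier results of these data known. All 10 genes were described, with up to 4 genes per pathway list by smallest p in the mutant and stage fits, and the 5 profiles most like Lin28b and Hmga2. Settings tried were another pseudocount, other filters, rescaling, centring, limma-voom, a replicate block and leaving out libraries. Some results of the lists are not reported here. Sequences are from RefSeq.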

Additional observations from a re-analysis of the deposited data

Results flagged for a closer look

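Hmga1 was the gene of the 10 whose stage difference ran in opposite directions in the fractions. On the log2(FPKM + 1) scale it was -0.33 in TRAP and 0.0495 in whole lung at E17 against E14, with 1 library each, and the difference between the fractions was not tested. The E17 TRAP record was marked as failed. In whole lung the difference was -0.06 after rescaling without records under 200 bases, so the opposite direction depends on the scaling.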

How the results depend on the processing

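Counts of the genes called varied with these settings. Rescaling to a common FPKM total gave 0 higher and 0 lower in the mutant (4 and 1 as reported), 1 higher in TRAP (4 as reported) and 4 at least 2-fold lower at E17 within TRAP (2 as reported). A pseudocount of 0.1 gave 4 at least 2-fold lower within TRAP, and 5 within whole lung (3 as reported). With no filter 0 fell with stage (5 as reported), and limma-voom called 2 of 7 higher in TRAP, where Hmga1, with failed records, could not be tested and Igf2bp2 did not pass. Leaving out 1 library gave 2 to 4 higher and 1 lower in the mutant, 0 higher and 5 to 6 lower by stage with all wild-type libraries, and 0 to 1 higher and 0 to 7 lower by day. The daily slope of Hmga2 was -0.67, ran from -0.992 without E17 TRAP to 0.215 without E14 TRAP, and so turned. Of the other alternative values of single genes, 366 kept direction and call, and 15 changed sign without passing a test or moving beyond counting error. Another 14 newly passed, 21 no longer passed and 14 moved beyond counting error, 1 of these with a change of sign. Why was not tested. With the replicate number as a block, the mutant fit gave 4 higher and 1 lower among the genes, and 1929 and 1574 over all records. Same-numbered libraries correlated at 0.01 in their deviations. With 2 libraries per genotype this cannot settle whether same-numbered libraries share a source or preparation. Scaling moved the balance of all calls. In the mutant, 2063 higher and 1692 lower became 1749 and 2336 after centring, 2699 and 1253 after rescaling without short records and 167 and 57 after rescaling. By stage, 1172 and 783 became 1180 and 1436 without short records and 533 and 628 after rescaling, and by fraction 2910 and 2105 became 2381 and 2538, and 553 and 3026, or 1771 and 2367 with limma-voom. Low depth limits Lin28a and Lin28b.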
